A study of Homo sapiens with 18 samples.

Results

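A set of 10 inflammatory cytokine and chemokine genes was followed across 3 human cell lines in normoxia and hypoxia. They were chosen by symbol and comprised IL8 (the older name of CXCL8), CXCL1, CXCL2, CXCL3, CXCL5, CCL2, IL6, IL1A, IL1B and LIF, which is 10 of the 23106 genes counted. All 10 were found by symbol, and each was read in all 18 RNA-seq samples. By edgeR, all 8 members tested in RCC4+VHL cells were called in hypoxia, 6 higher and 2 lower, where 50.1% of all genes tested were called. In HKC-8 cells 1 of 5 tested members, IL6, was called (20.4% of all genes) in the fit without pairing, on which all HKC-8 counts rest unless the block is named, and 2 of 5 (IL6 and LIF) with the replicate as a block, where 5755 rather than 2757 of 13536 genes were called. In HepG2 cells 0 of 2 were called (39.1% of all genes; 1 had an unadjusted p under 0.05). DESeq2 called 5 higher and 2 lower in RCC4+VHL, 2 higher in HKC-8 (IL6 and LIF) and 1 lower in HepG2 (IL8).

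Poly(A)+ RNA was sequenced from 6 groups of 3 replicates. HKC-8, a kidney proximal tubule line, was compared between normoxia (given as 21 in the sample names) and hypoxia, for which the labels give 0.5% oxygen for 16 h, although the names of the hypoxic samples give 0.1. RCC4 is a renal cancer line that lacks functional VHL, the ubiquitin ligase subunit that marks HIF-α for destruction. The cells used here, RCC4+VHL, carried stably transfected wild-type VHL in both oxygen groups, and the labels give 1% oxygen for 24 h, whereas the text of the study describes the shorter and deeper exposure for every line. HepG2, a hepatocellular cancer line, was kept in normoxia or in 0.5% oxygen for 16 h. No other genotype or agent was given for these groups, and all are immortal lines rather than primary cells. The cell line and its exposure therefore cannot be told apart where the hypoxic response of RCC4+VHL is compared with that of another line. The study states that its RNA-seq was done in triplicate under ENCODE guidelines. Nothing in the sources says that replicates were separate cultures, so p-values measure only the spread between these samples. The abundance of an mRNA says nothing of the protein released.

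Chemokines are small secreted proteins that draw leucocytes towards a tissue. IL8, CXCL1, CXCL2, CXCL3 and CXCL5 are CXC chemokines with a glutamate-leucine-arginine motif that act on neutrophils through CXCR2, and for IL8 also CXCR1. CCL2 draws monocytes through CCR2. IL6 and LIF signal through receptor complexes that share the gp130 chain (IL6ST), and IL1A and IL1B act on IL1R1. Most of these genes are transcribed at a low level until NF-κB, AP-1 and C/EBP factors are activated by microbial products, TNF or IL-1, and many of their mRNAs carry AU-rich elements that shorten their life. Injured tubule cells and many carcinomas are known sources of IL8, CCL2 and IL6.

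The 10 genes lie at 5 places in the genome. The 5 CXC chemokines belong to a cluster of 358.7 kb on chromosome 4 (GRCh37), running from IL8 (chr4:74606236-74609433, forward strand) through CXCL1 (chr4:74735110-74737025, forward) to CXCL5 (chr4:74861359-74864394), CXCL3 (chr4:74902306-74904524) and CXCL2 (chr4:74962757-74964913), the last 3 on the reverse strand. IL1A (chr2:113531502-113542070) and IL1B (chr2:113587328-113594393) lie 45.3 kb apart on the reverse strand of chromosome 2. CCL2 is at chr17:32582293-32584227, IL6 at chr7:22765503-22771621 and LIF at chr22:30636442-30642748. These spans are the gene bodies, introns and untranslated regions included.

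The proximal promoters are shown because 6 of the 8 that could be read hold the same kind of NF-κB motif at nearly the same distance from the transcription start. Each sequence is the 150 bases before the RefSeq start, 5′ to 3′ on the strand of the gene, taken from the RefSeq promoter table (GRCh38.p14) and matched to 1 place in GRCh37, whose coordinates are given. Capitals mark a match to GGANNNTCC, the κB motif searched on both strands. CCL2 and LIF had no entry.
IL8, chr4:74606136-74606285: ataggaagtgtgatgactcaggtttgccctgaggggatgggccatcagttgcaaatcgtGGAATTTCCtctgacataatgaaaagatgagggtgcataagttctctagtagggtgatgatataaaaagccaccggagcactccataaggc
CXCL1, chr4:74734960-74735109: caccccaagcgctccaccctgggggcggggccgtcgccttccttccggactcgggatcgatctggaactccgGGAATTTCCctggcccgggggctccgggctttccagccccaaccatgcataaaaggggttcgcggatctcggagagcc
CXCL2, chr4:74964913-74965062: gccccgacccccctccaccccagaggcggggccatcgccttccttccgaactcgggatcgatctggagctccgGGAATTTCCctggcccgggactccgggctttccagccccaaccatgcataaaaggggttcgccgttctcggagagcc
CXCL3, chr4:74904407-74904556: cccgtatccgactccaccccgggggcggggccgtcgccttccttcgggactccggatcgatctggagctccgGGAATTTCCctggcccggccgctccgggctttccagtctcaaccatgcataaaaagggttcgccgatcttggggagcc
CXCL5, chr4:74864395-74864544: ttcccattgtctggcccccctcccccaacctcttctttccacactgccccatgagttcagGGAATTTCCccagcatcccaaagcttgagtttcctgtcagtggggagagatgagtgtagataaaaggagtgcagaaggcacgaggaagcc
IL6, chr7:22766669-22766818: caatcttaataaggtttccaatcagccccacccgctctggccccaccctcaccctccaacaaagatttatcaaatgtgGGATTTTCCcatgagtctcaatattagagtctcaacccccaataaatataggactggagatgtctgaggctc

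The match began 91 bases before the start in IL8, 78 in CXCL1, 77 in CXCL2, 78 in CXCL3, 90 in CXCL5 and 72 in IL6. It read GGAATTTCC in the 5 chemokines and GGATTTTCC in IL6. Over the whole table, 7.8% of 35116 promoters held such a match in the 250 bases before the start. No match to these letters lay in that window of IL1A or IL1B. Compared without gaps over the 150 positions, CXCL1 was identical to CXCL3 at 86% and to CXCL2 at 63.3%, and CXCL2 to CXCL3 at 58.7%.

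Other motifs were scattered over the 300-base windows that run 50 bases past the start. The core of a hypoxia response element (ACGTG or GCGTG, both strands) occurred in CXCL5 and IL1A, against 48.4% of all promoters. The AP-1 motif TGANTCA occurred in IL8 and IL1A (7.71% of all promoters), and TTGCNNAA, a C/EBP motif, in CXCL2, IL6 and IL1B (10.5%). These are letter matches, and no binding was measured.

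The 3′ UTRs of most members were rich in the pentamer ATTTA, the core of AU-rich elements, which was not tested for the set. IL6 held 14.1 copies per kb and CXCL2 14, both at percentile 99.6 of the 18049 genes with a 3′ UTR of at least 100 bases, whose median was 1.67 per kb. CXCL3 had 10.4 per kb, IL1B 9.84, CXCL1 7.77, IL8 7.19, CXCL5 5.51 and IL1A 4.38. CCL2 with 2.66 and LIF with 2.19 copies per kb stood nearest to the median gene.

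Libraries held 40915980 to 97984260 counted reads, so that 3 reads, taken here as the detection floor of 1 sample, corresponded to 0.0306 to 0.0733 CPM, that is reads scaled to the size of the library. Floors and counting intervals cover counting error only. Hypoxia was evident from 10 fixed hypoxia genes: all 10 tested in HKC-8, all 8 tested in RCC4+VHL and all 10 tested in HepG2 were higher in hypoxia. The hepatocyte list (8 genes, ALB among them) summed to 35104 to 45683 CPM in HepG2 and to at most 11.1 CPM in the kidney lines. The list of 9 kidney tubule markers summed to 159 to 202 CPM in HKC-8, 811 to 987 CPM in RCC4+VHL and 306 to 364 CPM in HepG2, so that it was lower in HKC-8 than in the liver line. PAX8 was present in both kidney lines, but PAX2, CDH6, LRP2, CUBN and GGT1 stayed under 1 CPM in HKC-8, and LRP2, CUBN and ANPEP under 1 CPM in RCC4+VHL. PTPRC, the pan-leucocyte marker, averaged at most 0.0296 CPM in any group, and the leucocyte list summed to 6.56 to 16.5 CPM in the kidney lines, most of it CD68. In HepG2 that list summed to 2427 to 2957 CPM, of which LYZ alone made 2415 CPM in normoxia and 2786 CPM in hypoxia. Among the leucocyte genes, ITGAM was higher in hypoxic RCC4+VHL cells (log2 1.14, SE 0.25, edgeR adjusted p = 0.000488) and CD68 (log2 0.39, SE 0.07, edgeR adjusted p = 0.000584) and LYZ (log2 0.21, SE 0.06, edgeR adjusted p = 0.0159) in hypoxic HepG2 cells. CD14 was lower in hypoxia in HKC-8 (log2 -0.83, SE 0.22, edgeR adjusted p = 0.0281) and HepG2 (log2 -0.84, SE 0.27, edgeR adjusted p = 0.0253). The list of 8 fibroblast and endothelium genes was higher in hypoxia without overlap in each line, at 11.8 to 19.7 against 25.1 to 27.8 CPM in HKC-8, 43.7 to 49.3 against 62.9 to 66.2 CPM in RCC4+VHL and 28.2 to 31.5 against 64.5 to 73.9 CPM in HepG2. PDGFRB made most of it in hypoxia and was called higher in all 3 lines, whereas COL1A2, DCN and KDR did not exceed 6 reads in any sample. The part of such transcripts in the results was not tested. In bulk RNA, fewer cells that transcribe a gene and less RNA per cell cannot be told apart.

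**Figure D1:**
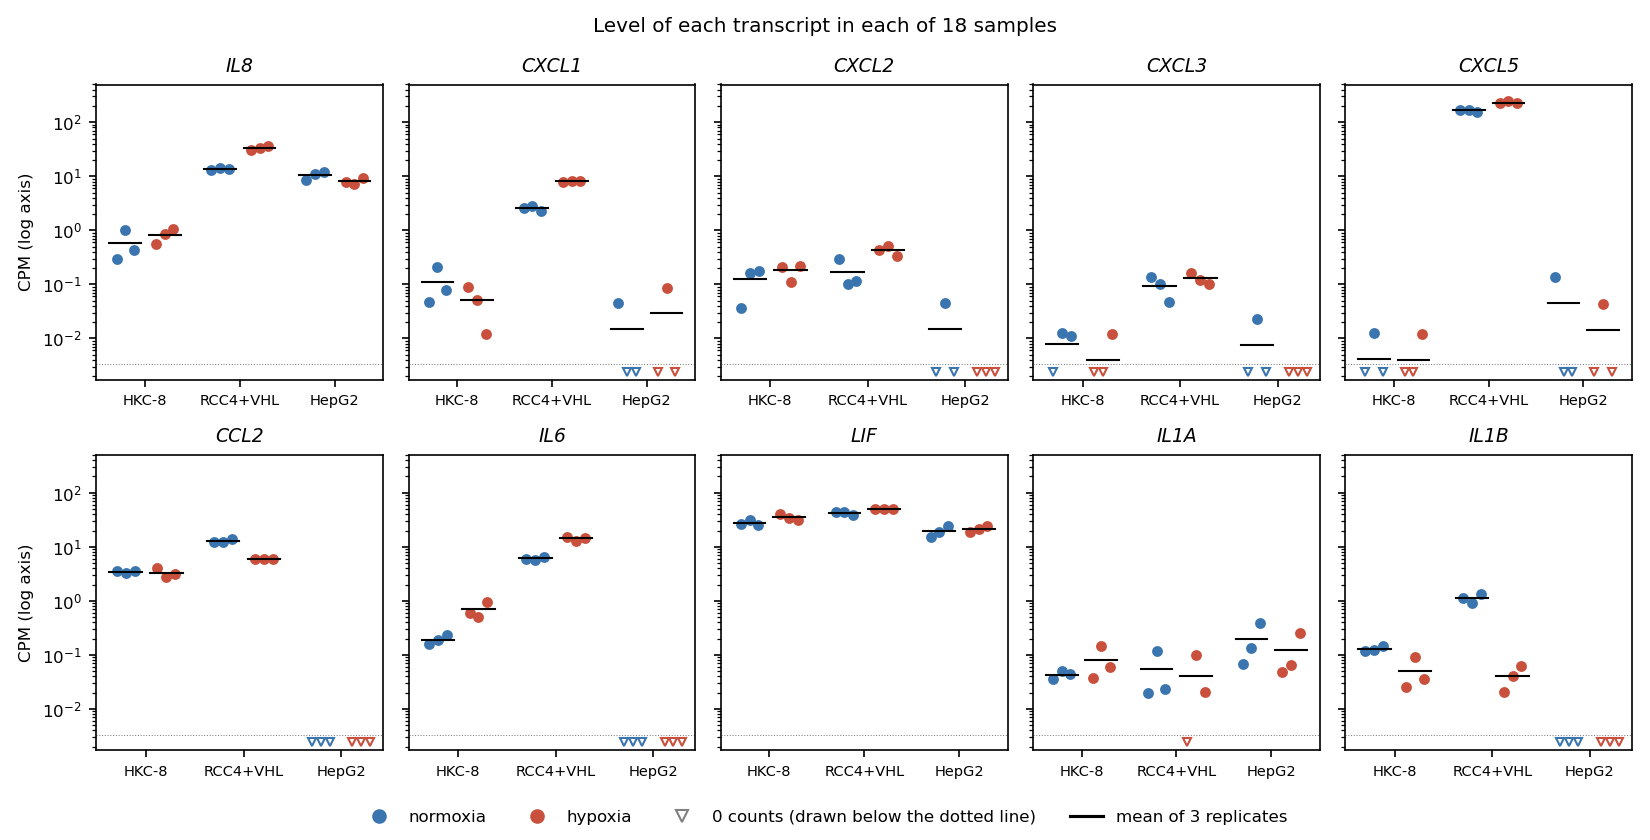
Level of the 10 transcripts in each of the 18 samples, in CPM on a log axis, with the mean of 3 replicates as a bar; open triangles under the dotted line mark samples with 0 counts. LIF was measured in every sample at 15.2 CPM or more, whereas CCL2, IL6 and IL1B had 0 counts in all 6 HepG2 samples.

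The lines differed widely in which of the genes they transcribed without hypoxia. Scaled to transcript length so that genes can be compared, normoxic RCC4+VHL cells had CXCL5 at 68.0 CPM per kb, CCL2 at 17.1, LIF at 10.9, IL8 at 8.33 and IL6 at 5.39. In HKC-8 cells LIF stood at 7.12 and CCL2 at 4.70 CPM per kb, and the other 8 at 0.356 or less. HepG2 cells transcribed IL8 at 6.34 and LIF at 4.99 CPM per kb, and the other 8 at 0.0965 or less. LIF was the only member with a normoxic mean above 1 CPM in all 3 lines.

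Normoxic levels were tested between lines for the 7 genes that passed the low-count filter, which left out CXCL2, CXCL3 and IL1A. Fitted without that filter, and on few reads, CXCL3 was higher in RCC4+VHL than in HKC-8 (log2 3.31, edgeR adjusted p = 0.00809). IL1A was higher in HepG2 than in HKC-8 (2.05, 0.0255). CXCL2 was lower in HepG2 than in HKC-8 (-2.92, 0.0243) and RCC4+VHL (-3.38, 0.0107), and CXCL3 lower than in RCC4+VHL (-3.38, 0.0196). No other normoxic comparison of these genes was called. All 7 tested genes were higher in RCC4+VHL than in HKC-8, where 80.8% of 14806 genes differed and 39.4% were higher in RCC4+VHL. CXCL1, CXCL5, IL6 and IL1B were scarce in HKC-8 and passed the filter through RCC4+VHL, where they were high. With at least 10 counts in every sample only 2 members, IL8 and LIF, could be tested, and both were called higher in RCC4+VHL. The tally describes the genes measured and is not a test of the set. The log2 differences in level were 4.98 (SE 0.24) for IL6, 4.57 (SE 0.30) for IL8, 4.54 (SE 0.44) for CXCL1, 3.11 (SE 0.34) for IL1B, 1.88 (SE 0.14) for CCL2 and 0.63 (SE 0.14) for LIF, with edgeR adjusted p-values between 1.89e-09 and 0.000726. CXCL5 was the extreme case, with 23868 reads in the 3 normoxic RCC4+VHL samples and 1 read in the 3 of HKC-8, a depth-corrected ratio of 42436 with a counting interval of 7616 to 1676190.

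HepG2 differed from the kidney lines by its gaps. With its 0 reads set to a floor of 3 over the group of 3 samples, CCL2 stood 152-fold above HepG2 in HKC-8 and 551-fold above it in RCC4+VHL. These values were 8.36-fold and 264-fold for IL6, and 5.63-fold and 48.5-fold for IL1B. Counting error in the kidney lines is not part of them, so they are not lower bounds. The exact counting intervals of the ratios began lower, at 123 and 448 for CCL2, 6.54 and 214 for IL6, and 4.33 and 39.0 for IL1B. All 3 were called lower in HepG2 in both comparisons, but they passed the low-count filter only through the kidney lines, which fixed the direction. With at least 10 counts in every sample none of them could be tested. Against HKC-8, 83% of genes were called and 40.5% were lower in HepG2, and against RCC4+VHL 83.3% were called and 38.1% were lower.

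IL8 went the other way. Its normoxic level in HepG2 (10.4 ± 1.84 CPM, SD, n = 3) exceeded that of HKC-8 (0.584 ± 0.385 CPM) by 4.18 on the log2 scale (SE 0.30, edgeR adjusted p = 1.37e-08), in a comparison where 42.6% of genes were higher in HepG2. It lay below that of RCC4+VHL (13.7 ± 0.471 CPM) by a log2 difference of -0.39 that was not called (95% interval -0.91 to 0.14, edgeR adjusted p = 0.157), while the median of all genes stood at 0.11 in that comparison. CXCL5 and CXCL1 were also called between HepG2 and HKC-8, higher and lower in HepG2 respectively, but CXCL5 rested on 6 reads in 1 HepG2 library (log2 difference 3.01, and -1.54 without that library, edgeR adjusted p = 0.476), and the call of CXCL1 (28 against 2 reads over the groups) was lost without HKC-8 replicate 2 or HepG2 replicate 2 or 3 (edgeR adjusted p = 0.0740 to 0.0797).

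**Figure D2:**
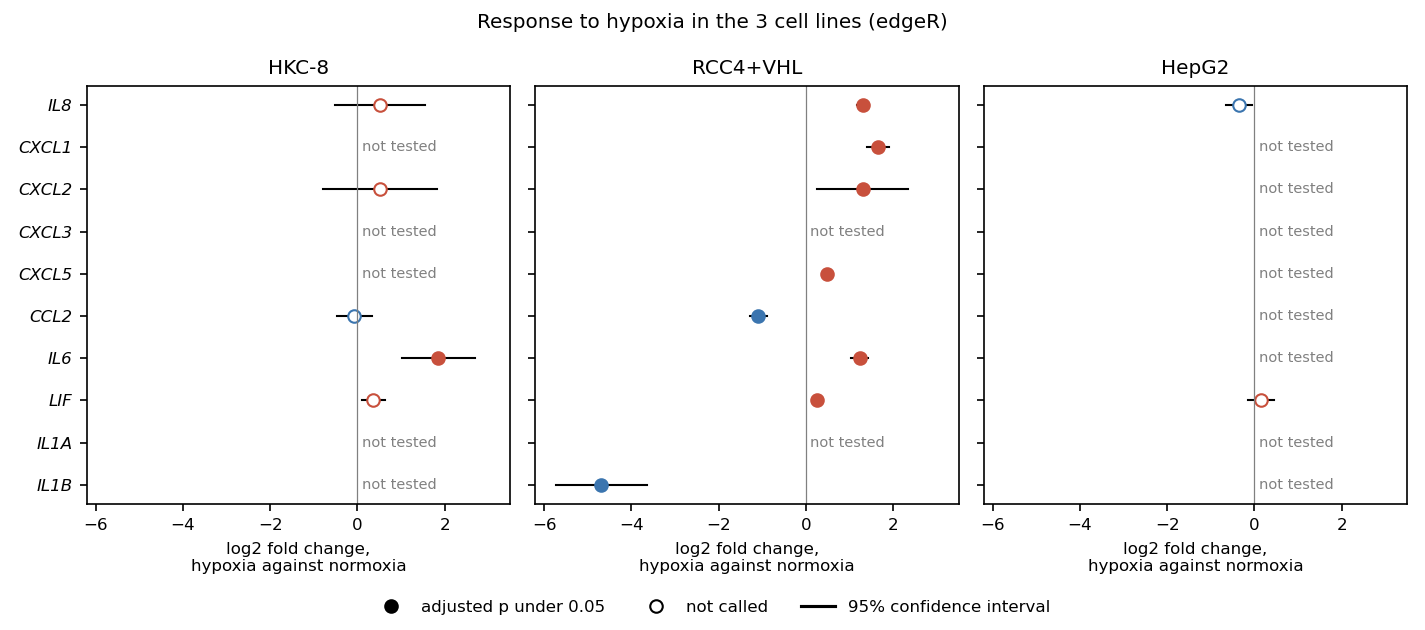
Log2 fold change of each transcript between hypoxia and normoxia in the 3 lines, with 95% confidence intervals from edgeR; filled points passed an adjusted p of 0.05, open points did not, and genes with too few counts are marked as not tested. The 8 tested genes all passed in RCC4+VHL, 6 to the right of 0 and CCL2 and IL1B to the left, against 1 of 5 in HKC-8 and 0 of 2 in HepG2.

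In RCC4+VHL cells 8 of the 10 genes were tested and all 8 were called, where 50.1% of 12811 genes were called, 25.9% higher and 24.2% lower in hypoxia. Changes of at least 2-fold were less common among all genes (2.07% higher and 1.01% lower) and were found for 4 members in the upward and 2 in the downward direction. A gene that is high in 1 group only passes the filter through that group, so these shares describe the genes measured and are not a test of the set.

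Among the neutrophil chemokines, IL8 stood at 13.3, 14.2 and 13.6 CPM in the normoxic RCC4+VHL samples and at 31.0, 33.1 and 36.8 CPM in the hypoxic ones. Every hypoxic sample was more than 2-fold above every normoxic one, and IL8 rose 2.47-fold (log2 1.30, SE 0.07, edgeR adjusted p = 1.80e-13). CXCL1, a ligand of CXCR2, went from 2.63, 2.80 and 2.32 CPM to 7.96, 8.31 and 8.22 CPM. Its groups were far apart and its rise of 3.16-fold (log2 1.66, SE 0.12, edgeR adjusted p = 7.10e-11) was the steepest of the set in this line. CXCL5 stood at 171, 168 and 158 CPM in normoxia and at 223, 243 and 226 CPM in hypoxia. It was by far the most abundant of the 10 in this line and rose by the modest factor of 1.40 (log2 0.48, SE 0.04, edgeR adjusted p = 5.47e-10).

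CXCL2 and CXCL3 were scarce. CXCL2 had 15, 5 and 5 reads in normoxia and 21, 26 and 16 in hypoxia, so that the groups lay next to each other. It passed the low-count filter only with its hypoxic samples, which favoured a rise. CXCL2 rose 2.46-fold (log2 1.30, SE 0.50, edgeR adjusted p = 0.0341). That call was lost with DESeq2 (adjusted p = 0.0535), without the low-count filter (0.0537), in a fit of all 18 samples (0.104), and without either of normoxic replicates 2 and 3 or hypoxic replicates 1 and 2 (0.0678 to 0.147). CXCL3, with 7, 5 and 2 reads against 8, 6 and 5, was not tested: its depth-corrected ratio was 1.33 with a counting interval of 0.632 to 2.86. CXCL1, CXCL2 and CXCL3 share some sequence, 5.33%, 10.1% and 5.26% of their 50-base words, and the authors dropped fragments without a unique alignment, so reads from these stretches may be missing from the counts. CXCL5 shared more, 12.7% of its 50-base words, with other transcripts that include GLYR1.

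**Figure D3:**
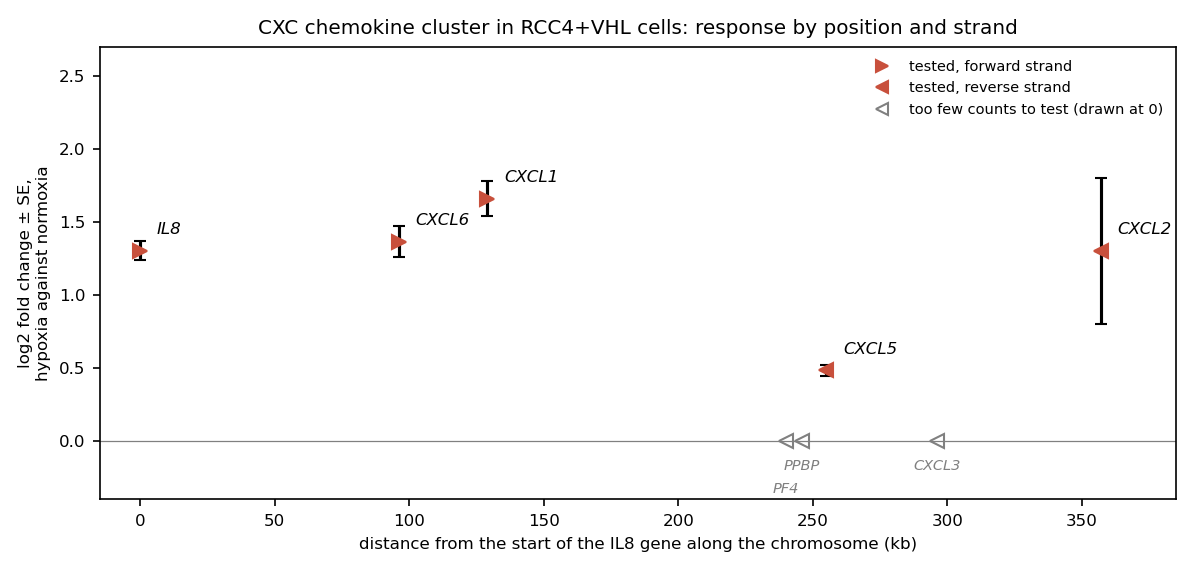
Log2 fold change (± SE) in RCC4+VHL cells against the distance from the start of the IL8 gene along the CXC chemokine cluster, in kb; the direction of a triangle gives the strand, and open symbols at 0 mark genes with too few counts to test. IL8, CXCL6 and CXCL1 on the forward strand rose by 1.30 to 1.66, CXCL5 and CXCL2 on the reverse strand by 0.48 and 1.30 (the latter a call that several settings lost), and PF4 and PPBP had 0 reads each (PF4V1 is not drawn).

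The rise extended to a neighbour that was not a member. CXCL6, also a ligand of CXCR2, lies between IL8 and CXCL1, and had 264, 247 and 199 reads in normoxic and 605, 549 and 702 reads in hypoxic RCC4+VHL cells. It rose by 1.36 on the log2 scale (SE 0.11, edgeR adjusted p = 3.22e-10), and was at 1 read over the 6 HKC-8 samples and 0 over the 6 of HepG2. PF4 and PPBP, which sit within the same cluster, had no read in any of the 18 samples.

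The monocyte chemokine CCL2 moved against the neutrophil chemokines. It stood at 12.4, 12.1 and 13.7 CPM in normoxic and at 5.85, 6.01 and 5.94 CPM in hypoxic RCC4+VHL cells. The groups were wide apart, and CCL2 fell 2.13-fold (log2 -1.09, SE 0.09, edgeR adjusted p = 1.06e-09). In HKC-8 its levels of 3.56, 3.25 and 3.63 CPM in normoxia and 4.05, 2.74 and 3.15 CPM in hypoxia overlapped, with a log2 change of -0.07 (95% interval -0.48 to 0.34, edgeR adjusted p = 0.814), which turned to 0.05 without hypoxic replicate 2.

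IL1B, the secreted agonist of IL1R1, was nearly lost from hypoxic RCC4+VHL cells. Its reads numbered 58, 46 and 56 in normoxia and 1, 2 and 3 in hypoxia, that is 1.12 ± 0.199 and 0.0409 ± 0.0208 CPM (SD, n = 3). It fell by 4.69 on the log2 scale (SE 0.50, edgeR adjusted p = 5.50e-08), and the ratio of the summed reads was 0.0367 with a counting interval of 0.0133 to 0.0817. IL1B passed the low-count filter through its normoxic samples only, which favoured a fall. Its hypoxic level lies at about the detection floor, so the size of the fall is uncertain.

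IL1B was low in HKC-8 as well and was not tested there, with 10, 10 and 13 reads in normoxia and 2, 9 and 3 in hypoxia. The hypoxic reads were all below the normoxic ones, and the ratio of the sums was 0.417 (counting interval 0.206 to 0.800). Fitted without the low-count filter the change was -1.27 on the log2 scale and was not called (edgeR adjusted p = 0.223). IL1A, the other IL1R1 agonist, never exceeded 16 reads in a sample. Its sums were 11 reads in normoxia and 22 in hypoxia in HKC-8, 8 and 6 in RCC4+VHL and 25 and 15 in HepG2, all left out by the low-count filter. Fitted without that filter, none was called, with log2 changes of 0.91 in HKC-8, -0.41 in RCC4+VHL and -0.67 in HepG2 (edgeR adjusted p = 0.458 to 0.814).

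IL6, the gp130 cytokine of the acute phase response, rose in both kidney lines. In RCC4+VHL it went from 5.93, 5.76 and 6.55 CPM to 15.4, 12.8 and 14.6 CPM, 2.36-fold (log2 1.24, SE 0.09, edgeR adjusted p = 2.02e-10). In HKC-8 it had 13, 15 and 21 reads in normoxia and 48, 50 and 80 in hypoxia. The groups did not overlap and IL6 rose 3.61-fold (log2 1.85, SE 0.37, edgeR adjusted p = 0.0103), the only call among 5 tested genes in a comparison where 20.4% of 13536 genes were called and 11.2% were higher and 9.12% lower in hypoxia. That call was lost without normoxic replicate 1 (log2 1.73, adjusted p = 0.0545). The level reached in hypoxic HKC-8, 0.694 ± 0.242 CPM, was still below the normoxic 6.08 ± 0.417 CPM of RCC4+VHL.

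LIF, the other gp130 cytokine and the most evenly transcribed gene of the set, stood at 42.2 ± 3.10 CPM in normoxic and 50.3 ± 0.492 CPM in hypoxic RCC4+VHL cells (SD, n = 3). It rose 1.19-fold there (log2 0.26, SE 0.05, edgeR adjusted p = 0.000241), a call that was lost in a fit of all 18 samples (adjusted p = 0.176). In HKC-8 it went from 26.0, 31.1 and 25.5 CPM to 39.9, 33.9 and 32.0 CPM. Every hypoxic sample was above every normoxic one, but the log2 change of 0.36 (SE 0.12, edgeR adjusted p = 0.0595) was not called. Replicate numbers paired the HKC-8 samples, and with the replicate as a block LIF was called (log2 0.36, SE 0.09, edgeR adjusted p = 0.00885). Without the block it was also called by DESeq2 (adjusted p = 0.0290), in a fit of all 18 samples (0.0383) and without normoxic replicate 2 (0.0492). In HepG2 the levels of 15.2, 18.8 and 23.9 CPM and 18.9, 20.95 and 24.6 CPM overlapped (log2 0.15, 95% interval -0.15 to 0.46, edgeR adjusted p = 0.420). The 6 group means of LIF fell in the order RCC4+VHL, HKC-8, HepG2 with hypoxia above normoxia in each line, and the oxygen groups of HepG2 overlapped.

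The remaining chemokines of HKC-8 were few and variable. IL8 had 25, 83 and 39 reads in normoxia and 45, 83 and 88 in hypoxia, with overlapping groups and a log2 change of 0.51 (95% interval -0.52 to 1.54, edgeR adjusted p = 0.463), which was 1.18 without normoxic replicate 2 and 0.19 without normoxic replicate 1 and was called in neither case. CXCL2, with 3, 13 and 16 against 17, 11 and 18 reads, changed by 0.52 (95% interval -0.78 to 1.83, edgeR adjusted p = 0.558). CXCL1 had 4, 17 and 7 against 7, 5 and 1 reads and was not tested. CXCL3 and CXCL5 did not exceed 1 read in any HKC-8 sample. Normoxic replicate 2 held the most reads of IL8 and CXCL1 in that group.

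In HepG2 only IL8 and LIF passed the low-count filter, and neither was called in a comparison where 39.1% of 13623 genes were called, 19.9% higher and 19.2% lower. Only 1 of them, IL8, had an unadjusted p under 0.05. IL8 stood at 8.36, 10.9 and 11.9 CPM in normoxia and 7.88, 7.30 and 9.28 CPM in hypoxia. The groups overlapped, since hypoxic replicate 3 was above normoxic replicate 1, and the log2 change was -0.35 (95% interval -0.65 to -0.05, edgeR adjusted p = 0.0588). This value lay close to the threshold: DESeq2 called it lower (adjusted p = 0.0433), as did edgeR with total count scaling (0.0188) and without the low-count filter (0.0372). By edgeR it was also called lower without normoxic replicate 1 (0.00993) or hypoxic replicate 3 (0.0433), and with the replicate as a block (log2 -0.35, adjusted p = 0.0214). IL8 was lower in hypoxia within each same-numbered pair, although the numbers were not taken to pair the HepG2 samples. CXCL1, CXCL2, CXCL3 and CXCL5 never exceeded 6 reads in a HepG2 sample, and none of them was called in a fit without the filter.

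Of the members, 4 differed in response between lines when the difference itself was tested, each time against RCC4+VHL, whose labelled exposure also differed. The log2 change of IL8 was lower in HepG2 than in RCC4+VHL, by a difference of -1.65 (SE 0.16, edgeR adjusted p = 3.81e-07), the 1 call among 5 members in a comparison where 22.6% of 14813 genes were called. CCL2, IL6 and IL1B have no estimate there, since HepG2 had 0 reads of each. LIF did not separate these lines (log2 difference -0.10, 95% interval -0.43 to 0.24, edgeR adjusted p = 0.745).

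Between HKC-8 and RCC4+VHL, 3 of 8 members were called, against 15.2% of 14203 genes. The log2 change of CCL2, which fell in RCC4+VHL, was 1.04 higher in HKC-8 (SE 0.20, edgeR adjusted p = 0.00362). That of IL1B, which also fell in RCC4+VHL, was 3.48 higher in HKC-8 (SE 0.77, edgeR adjusted p = 0.00882), and that of CXCL1 differed by -2.75 (SE 0.63, edgeR adjusted p = 0.00992). IL1B and CXCL1 did not pass the low-count filter in HKC-8 alone, entered this fit through RCC4+VHL, where they were high, and could not be tested with at least 10 counts in every sample, so CCL2 is the only 1 of the 3 that was measured well in both lines. CXCL1 lost its call without HKC-8 normoxic replicate 2 (adjusted p = 0.0544) and IL1B without HKC-8 hypoxic replicate 2 (0.0552).

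IL6, which rose in both kidney lines, differed between them by 0.63 (95% interval -0.07 to 1.32, edgeR adjusted p = 0.222), and IL8 by -0.76 (95% interval -1.64 to 0.11, edgeR adjusted p = 0.235). LIF differed by 0.12 (95% interval -0.16 to 0.40, edgeR adjusted p = 0.600). These intervals leave room for differences of up to 2-fold and more for IL6 and IL8. Between HKC-8 and HepG2 none of IL8, LIF and CXCL2 was called by edgeR or DESeq2, and none had an unadjusted p under 0.05, in a comparison where 9.3% of 15046 genes were called. IL8 had a log2 difference of 0.87 there (95% interval -0.09 to 1.82, edgeR adjusted p = 0.260), and was called without HKC-8 normoxic replicate 2 (1.53, adjusted p = 0.0162).

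**Figure D4:**
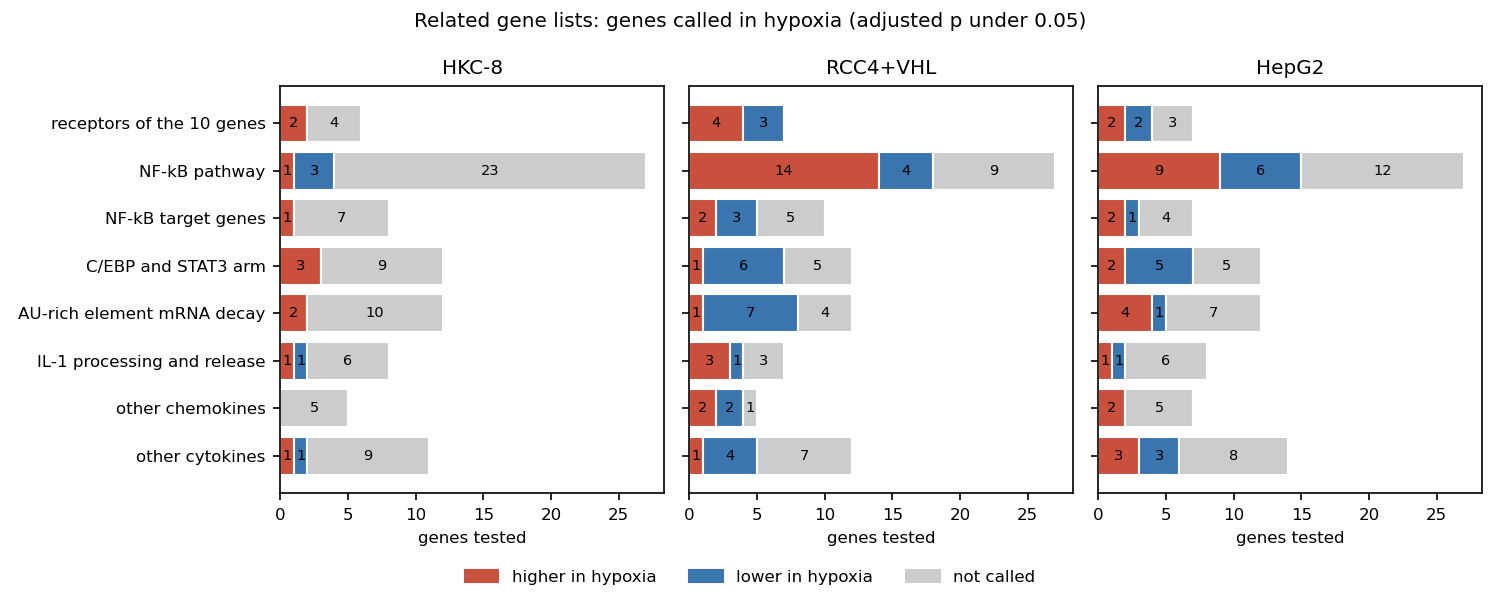
Number of genes tested in 8 related lists in each line, divided into those higher in hypoxia, lower in hypoxia and not called (edgeR, adjusted p under 0.05). Of the 27 NF-κB pathway genes, 14 were higher and 4 lower in RCC4+VHL, against 1 and 3 in HKC-8 and 9 and 6 in HepG2.

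Genes that act upstream of the cytokines, on their mRNAs or as their receptors were measured next, and their counts stand beside the shares of all genes called, which were 25.9% higher and 24.2% lower in RCC4+VHL, 11.2% and 9.12% in HKC-8, and 19.9% and 19.2% in HepG2. Of the 27 NF-κB pathway genes, all tested in every line, 14 were higher and 4 lower in hypoxic RCC4+VHL cells (median log2 change 0.20, against a median near 0 over all genes), 1 and 3 in HKC-8 (median 0.02) and 9 and 6 in HepG2 (median 0.05). The difference in response was called for 3 of the 27 between HKC-8 and RCC4+VHL (15.2% of all genes), 3 between HKC-8 and HepG2 (9.3%) and 8 between HepG2 and RCC4+VHL (22.6%). No NF-κB pathway gene reached a 2-fold change in RCC4+VHL. TNIP1, which with TNFAIP3 restrains NF-κB signalling, rose by 1.19 on the log2 scale in HKC-8 (SE 0.08), 0.66 in RCC4+VHL (SE 0.03) and 1.24 in HepG2 (SE 0.06), with edgeR adjusted p-values of 4.34e-05, 9.36e-14 and 1.52e-09. BIRC3, an NF-κB-induced ubiquitin ligase, rose by 1.57 in HepG2 (SE 0.17, edgeR adjusted p = 1.14e-05).

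A few genes of these lists moved alike in all 3 lines, chosen here after their values were seen. CHUK (the kinase IKKα) and MYD88 (the adaptor of IL-1 and Toll-like receptors) were lower in every line, CHUK by log2 changes of -0.32, -0.29 and -0.46 and MYD88 by -0.42, -0.25 and -0.26 in HKC-8, RCC4+VHL and HepG2. OSMR, a gp130 partner, rose by 0.76, 0.67 and 0.73. DUSP1, a phosphatase that switches off p38 kinase, rose by 1.09, 1.60 and 0.90. All of these passed the edgeR threshold, with adjusted p-values from 2.96e-19 to 0.0290. The shared receptor chain IL6ST was called in all 3 lines but not in 1 direction, at 0.42 in HKC-8, 0.39 in RCC4+VHL and -0.26 in HepG2.

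Of the other NF-κB target genes tested, 2 were higher and 3 lower of 10 in RCC4+VHL, 1 was higher of 8 in HKC-8, and 2 were higher and 1 lower of 7 in HepG2, against 50.1%, 20.4% and 39.1% of all genes called in either direction. PTX3, a secreted pattern recognition protein, rose by 2.28 in HKC-8 (SE 0.39, edgeR adjusted p = 0.00557). In RCC4+VHL it changed by 0.16 (SE 0.07, edgeR adjusted p = 0.0872).

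Among the C/EBP and STAT3 genes, 6 of 12 were lower and 1 higher in RCC4+VHL, where 24.2% of all genes were lower, 5 lower and 2 higher in HepG2 (19.2% of all genes lower), and 3 higher in HKC-8 (11.2% of all genes higher). SOCS1, an inhibitor of cytokine receptor kinases, fell by 1.70 in RCC4+VHL (SE 0.49, edgeR adjusted p = 0.00580). CEBPA rose by 1.03 in HKC-8 (SE 0.29, edgeR adjusted p = 0.0377) and CEBPD by 1.12 in HepG2 (SE 0.12, edgeR adjusted p = 1.03e-05).

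Of 12 genes acting on AU-rich mRNAs, 7 were lower and 1 higher in RCC4+VHL (24.2% of all genes lower), 2 higher in HKC-8 (11.2% higher), and 4 higher and 1 lower in HepG2 (19.9% higher). ZFP36, which encodes the decay factor tristetraprolin, rose by 1.63 in HepG2 (SE 0.10, edgeR adjusted p = 2.97e-08), while in RCC4+VHL it was lower by a log2 change of -0.56 (SE 0.19, edgeR adjusted p = 0.0191).

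Receptors and processing enzymes were also measured. Of the receptor genes, all 7 tested in RCC4+VHL were called where 50.1% of all genes were, 4 higher and 3 lower, IL1R1 among the latter with a log2 change of -0.57 (SE 0.05, edgeR adjusted p = 2.64e-09). In HKC-8, 2 of 6 were called, both higher (20.4% of all genes called), and in HepG2, 2 were higher and 2 lower of 7 (39.1%). In the IL-1 processing list 3 of 7 were higher and 1 lower in RCC4+VHL, and 1 of 8 moved each way in each of the other lines, against 50.1% of all genes called in RCC4+VHL, 20.4% in HKC-8 and 39.1% in HepG2. NLRP1, an inflammasome sensor, rose by 1.07 in HKC-8 (SE 0.17, edgeR adjusted p = 0.00402), and in HepG2 CASP1, which cleaves pro-IL-1β, fell by 1.57 (SE 0.39, edgeR adjusted p = 0.00611) while its adaptor PYCARD rose by 1.13 (SE 0.24, edgeR adjusted p = 0.00248).

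Most other chemokines and cytokines were silent or scarce. Of 31 further chemokines, 5 could be tested in RCC4+VHL, where CXCL6 and CCL28 (log2 1.38, SE 0.16, edgeR adjusted p = 2.38e-07) rose and CXCL14 (-1.19, SE 0.17, edgeR adjusted p = 3.91e-06) and CX3CL1 (-0.44, SE 0.06, edgeR adjusted p = 2.62e-06) fell. In HepG2, 2 of 7 were called and both were higher, where 39.1% of all genes were called. The share of all genes called was 50.1% in RCC4+VHL and 20.4% in HKC-8. CCL20, a chemokine of dendritic cells and T cells, was 1 of the 2 called in HepG2. It rose there from 41.7 ± 2.49 to 124 ± 7.53 CPM (SD, n = 3, log2 1.57, SE 0.07, edgeR adjusted p = 9.35e-10). In HKC-8 none of 5 was called by edgeR, 2 had an unadjusted p under 0.05, and DESeq2 called 1.

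Of 27 further cytokines found in the files, 1 of 12 tested was higher and 4 lower in RCC4+VHL, 1 of 11 moved each way in HKC-8, and 3 of 14 moved each way in HepG2. The shares of all genes higher and lower were 25.9% and 24.2%, 11.2% and 9.12%, and 19.9% and 19.2% in these lines. CSF2 (GM-CSF), a growth factor of neutrophils and macrophages, went from 0.519 ± 0.184 to 2.28 ± 0.0490 CPM in RCC4+VHL (log2 2.12, SE 0.26, edgeR adjusted p = 5.42e-07). CTF1, another gp130 cytokine, rose by 1.12 in HKC-8 (SE 0.17, edgeR adjusted p = 0.00280).

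The genes whose pattern was nearest to each member were found from log2 CPM centred on the line. For IL6, over the 12 samples of the kidney lines, these were TRAM2, FOXN3 and FHL1, each with Pearson r of 0.99. For CCL2 they were PPM1D (0.98), PHOSPHO1 (0.96) and C9orf72 (0.95), and for CXCL2 BIRC3 (0.90), KIAA0753 (0.88) and NEDD4L (0.87), over the same samples. Over all 18 samples LIF was nearest to IL4R (0.86), JAG1 (0.85) and NAV1 (0.84), and NEDD4 (0.85) and PSD3 (0.81) were among the nearest to IL8. These coefficients share the step between normoxia and hypoxia and the libraries themselves, and are descriptive.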

How the data were processed

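RNA-seq counts were analysed for 18 samples in 6 groups of 3. Per the labels and the study's methods, the authors trimmed reads with Trim Galore 0.3.3, aligned them to GRCh37 with TopHat 2.0.8b and Bowtie 1.0.0, removed fragments that did not map uniquely with SAMtools 0.1.19, and the deposited files hold raw counts per gene from HTSeq 0.5.4p3 (intersection-strict, UCSC genes). Whether counting used the strand is not given in the sources used here, so reads of IL6 and LIF cannot be told apart from those of their antisense partners. HKC-8 samples were split over 2 lanes. HKC-8 libraries were deeper than those of the other lines, which overlapped in depth.

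From these counts, CPM used TMM factors over all 18 samples, and lengths came from GENCODE transcripts. Each comparison was fitted across all genes with edgeR 4.0.16 (R 4.3.3; quasi-likelihood F-test, filterByExpr, TMM, Benjamini-Hochberg adjusted p under 0.05). Lines were compared in normoxia in 1 fit of 9 samples, and in their response by an interaction term over 12 samples. SE was derived from the F statistic. Folds against a group at 0 reads used 3 counts over the group, and intervals of ratios of counts are 95% exact binomial. The scripts were tested on simulated data. Alternatives were DESeq2 1.42.0, other scalings and filters, 1 fit of all samples, the replicate as a block, and leaving out each sample. Replicate numbers paired the HKC-8 samples by the correlation of their deviations from group means (0.11 to 0.46 for same-numbered samples, minimum 0.1), which comes from the data and not the labels. HKC-8 normoxic replicate 1 correlated slightly more with hypoxic replicate 2 (0.118) than with its own number (0.108).

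All members were named; from the related lists, genes with a call and at least a 2-fold change in a line were named, and others named were picked after their values were seen. The members and lists were chosen with earlier results of these data known. Annotation used GRCh37 with GENCODE genes. A gene near IL8 in pattern and a kidney marker are not reported here.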

Additional observations from a re-analysis of the deposited data

Results flagged for a closer look

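The difference between the responses of 2 cell lines passed its own edgeR test for 4 members. Between HKC-8 and RCC4+VHL the log2 changes differed by -2.75 for CXCL1 (SE 0.63, adjusted p = 0.00992), by 1.04 for CCL2 (SE 0.20, adjusted p = 0.00362) and by 3.48 for IL1B (SE 0.77, adjusted p = 0.00882). The last 2 fell in RCC4+VHL, and the positive values mean a log2 change nearer to 0 in HKC-8. CXCL1 and IL1B were too scarce in HKC-8 to be tested there alone and entered this fit through RCC4+VHL, where they were high. With at least 10 counts in every sample they could not be tested. CXCL1 lost its call without HKC-8 normoxic replicate 2 (edgeR adjusted p = 0.0544) and IL1B without HKC-8 hypoxic replicate 2 (0.0552). The log2 change of IL8, which rose in RCC4+VHL, was lower in HepG2 by a difference of -1.65 (SE 0.16, adjusted p = 3.81e-07). In all 4 the line cannot be told apart from the exposure given in the labels, and in the 3 with HKC-8 not from depth either.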

How the results depend on the processing

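Over the alternatives, 688 member fold changes kept direction and call, 12 gained a call, 17 lost one and 6 reversed. In HKC-8 the count of members called in hypoxia went from 1 to 2 with DESeq2, in 1 fit of all 18 samples and with the replicate block (IL6 and LIF), and ranged from 0 to 2 when a sample was left out. In HepG2 it went from 0 to 1 (IL8, lower) with DESeq2, total count scaling, no low-count filter and the replicate block (edgeR adjusted p = 0.0214), and ranged from 0 to 1 without 1 sample, LIF being called without normoxic replicate 3 (adjusted p = 0.0322). HepG2 numbers share same-numbered correlations of 0.06 to 0.18 and RCC4+VHL numbers of -0.01 to 0.04, so not every pair passed the minimum of 0.1 in these lines and the numbers were not taken to pair the samples, although every HepG2 sample correlated best with its own number. The block changed no other call of a member. In RCC4+VHL 7 to 8 members were called without 1 sample. With at least 10 counts in every sample fewer members could be tested: 1 was called between the responses of HKC-8 and RCC4+VHL (2 to 3 without 1 sample), and between normoxic levels 2 for RCC4+VHL against HKC-8, 2 for HepG2 against HKC-8 and 1 for HepG2 against RCC4+VHL. Between the responses of HKC-8 and HepG2 the count ranged from 0 to 1 without 1 sample. Some fold changes reversed with 1 sample left out, and none was called in the reversed direction. They ranged from -0.24 to 0.052 for CCL2 in HKC-8 and from -2.08 to 1.12 for CXCL5 between the responses of HKC-8 and RCC4+VHL. Between those of HepG2 and RCC4+VHL the ranges were -4.36 to 1.98 for CXCL1, -4.61 to 2.27 for CXCL5 and -0.24 to 0.079 for LIF. CXCL5 between HepG2 and HKC-8 in normoxia ranged from -1.54 to 4.40. Of these, only the last was called, with no sample left out and in 3 of the 6 fits without 1 sample. The cause of the reversals was not tested.

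Over all genes, 2757 were called in HKC-8, 5013 in 1 fit of all samples, 5755 with the block and 1013 to 3283 without 1 sample. In RCC4+VHL 6423 were called, and 3286 in 1 fit of all samples. For the differences in response, HKC-8 and HepG2 had 1399, 2219 in 1 fit, 3019 with the block and 911 to 1890 without 1 sample, HKC-8 and RCC4+VHL 2154 and 4071 with the block, and HepG2 and RCC4+VHL 3355 and 1886 in 1 fit. Total count scaling moved the calls from 3318 higher and 3105 lower to 2289 and 4651 in RCC4+VHL, from 2708 and 2621 to 1978 and 4081 in HepG2, from 644 and 755 to 938 and 458 for HKC-8 and HepG2, where the median of all genes moved to 0.10, and from 1036 and 1118 to 1248 and 645 for HKC-8 and RCC4+VHL. Members under about 10 reads a sample are limited by depth.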
